A study of Mus musculus with 6 samples.

Results

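The clustered histone genes are the gene families that encode the bulk of the H1, H2A, H2B, H3 and H4 proteins of chromatin. They were taken as every row of the count table whose symbol starts with Hist1h, Hist2h, Hist3h or Hist4h. This gave 67 of 21760 symbols, of which 6 encode the linker histone H1, 18 encode H2A, 19 encode H2B, 11 encode H3 and 13 encode H4. On GRCm38 (GENCODE M21), 54 of the 67 lie on chromosome 13, 9 on chromosome 3, 3 on chromosome 11 and 1 on chromosome 6. The annotation calls 65 protein coding and 2 processed pseudogenes, Hist1h2al and Hist3h2bb-ps. GENCODE M21 names 70 genes in this way, and the other 3 were not analysed here.

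Replication-dependent histone genes are transcribed mainly in S phase, when new DNA needs new nucleosomes. Their transcripts mostly have no introns and end in a conserved stem-loop in place of a poly(A) tail, which the stem-loop binding protein SLBP recognises, and they are degraded quickly when DNA synthesis stops. Libraries made from total RNA after removal of ribosomal RNA keep such transcripts, whereas poly(A) selection loses most of them. In a macrophage population their level is commonly read together with that of other S phase genes.

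RNA came from macrophages that were isolated by FACS out of subcutaneous tumours of MC38, a mouse colon carcinoma cell line, after 16 days of growth on C57BL6 mice. The tumours of 2 mice were wild type (WT, titled WTb without further explanation). All others lacked Xkr8 (KO), which encodes a scramblase that exposes phosphatidylserine on dying cells. The KO tumours came from 2 clones, titled dXKR8 clone 1 and clone 2, with 2 mice each. No group was treated further. The sources used here do not give mouse age or sex, the sorting markers or the way the clones were made. The labels place the knockout in the tumour, not in the sorted cells: Xkr8 itself was at 6.89 and 6.05 CPM (counts per 1000000) in macrophages from WT tumours and at 4.14 to 6.97 in the 4 KO libraries, so this gene does not check the labels here. A clone is a single edited line, so its 2 mice do not replicate the knockout independently, and the effect of losing Xkr8 and that of other clone traits cannot be told apart. With 2 mice per group, p-values measure only the spread between these mice.

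1 library, that of WT mouse 2, was unlike the rest. It held 20038047 estimated counts, against 37090034 to 40022755 in the other 5, and 24.64% of them fell on the ribosomal precursor Rn45s, against 1.46% to 7.12%. All 12 macrophage markers listed had counts in every library, with sums of 10770 to 14110 CPM. The 10 fibroblast markers summed to 12010 CPM in WT mouse 2 and 2475 to 4159 elsewhere. Col3a1 alone was at 11320 CPM in WT mouse 2, against 1836 to 3633 elsewhere. In that library 4 of the 10 were above all others, and 1, Dcn, was below them (127 CPM against 254 to 470). The 9 epithelial or tumour markers summed to 44.7 CPM in WT mouse 2 and 11.6 to 16.7 elsewhere. Cdh1 alone was at 43.05 CPM in WT mouse 2 and 10.5 to 15.1 elsewhere. Krt8, Krt18, Krt20, Krt7, Cldn4 and Cldn7 were each at 0 in at least 1 library. The 17 T and NK cell markers summed to 77.9 and 82.0 CPM in WT and 139.0 to 279 in KO. Ncr1 was at 0 in at least 1 library. Cd3g and Cd2 passed the test as higher in KO (edgeR adjusted p = 0.0281 and 0.0327). In KO, 16 of the 17 had log2 fold changes above 0, all but Foxp3. Of the 11 monocyte markers, with sums of 3077 and 4426 CPM in WT and 3089 to 3794 in KO, Ly6c2, a near copy of Ly6c1, passed as higher in KO (edgeR adjusted p = 0.00279). Fn1 made up most of these sums, at 2314 and 3994 CPM in WT and 1875 to 2455 in KO. The log2 fold change in KO was above 0 for 10 of the 11, all but Fn1, with a median of 1.685. Neutrophil markers summed to 40.3 and 38.9 CPM in WT and 56.5 to 75.1 in KO, with Ly6g, S100a9, Retnlg, Ltf and Camp at 0 in at least 1 library. Csf3r made up most of these sums, at 26.3 and 25.9 CPM in WT and 44.8 to 61.6 in KO. Ly6g, Retnlg and S100a8 were at most at 0.993 CPM. Of the 8 tested, 7 had log2 fold changes above 0 in KO. The other, Cxcr2, was at 11.9 and 12.9 CPM in WT and 6.08 to 8.87 in KO. Dendritic cell markers summed to 24.8 and 33.0 CPM in WT and 38.5 to 54.6 in KO, with Cd209a at 0 in at least 1 library. Of these 10, 7 had log2 fold changes above 0 in KO and 3 had values below 0. The part of these differences in the histone results was not tested. In such bulk libraries, fewer cycling cells and less histone RNA per cell cannot be told apart. Levels below are CPM on library sizes scaled by TMM (trimmed mean of M values), which sets the median WT mouse 2 to WT mouse 1 log2 ratio of all genes at -0.01; with plain library totals it was -0.69.

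The transcript end is the feature that separates these genes from other mRNAs. A stem-loop of 16 bases was found in the GENCODE models of 45 of 67 members, and many of the other models stop at or near the coding sequence. The whole model was searched, and the element need not lie at its end. Of the members printed below, the model runs on after it for 840 bases in Hist1h1c and 42 in Hist1h2ad. It runs on for 155 bases in Hist1h2bg, 51 in Hist1h3b and 770 in Hist1h4d. The sequence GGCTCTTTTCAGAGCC was the most frequent, in 25 members, followed by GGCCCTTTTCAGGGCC in 7 and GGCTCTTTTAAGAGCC in 6. The following 1 member per class shows the element (capitals) with its flanks, from the GENCODE M21 transcripts.
Hist1h1c: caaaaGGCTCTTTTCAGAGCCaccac
Hist1h2ad: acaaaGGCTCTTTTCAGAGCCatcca
Hist1h2bg: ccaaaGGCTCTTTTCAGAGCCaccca
Hist1h3b: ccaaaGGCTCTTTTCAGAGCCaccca
Hist1h4d: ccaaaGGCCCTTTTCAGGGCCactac

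The promoters differ between classes. RefSeq windows of 300 bases (250 before to 50 after the start, GRCm38.p6) matched 60 members, 1 of them with a second start, giving 61 windows. Searched on both strands, TATAAA (reverse TTTATA) was present in 55.74% of member windows and 13.57% of all 32534 windows. CCAAT (reverse ATTGG) was present in 85.25% against 37.37%: in every H1, H2A, H2B and H3 window, but in 3 of 12 H4 windows. The octamer ATTTGCAT (reverse ATGCAAAT) was present in 21.31% against 1.75%, in 7 of 17 H2B and 6 of 17 H2A windows and in none of H1, H3 or H4. Overlapping matches were all counted. The stretches printed below end at the transcription start or at the neighbouring gene model, and are those of the most abundant H2B member with an octamer among those that lie head to head with an H2A gene, the most abundant H4 member and the most abundant H1 member, with matches in capitals. The first is the whole 175-base interval between Hist1h2bg and Hist1h2ae, which are transcribed away from each other (chr13:23571221-23571395, plus strand). The second lies before Hist1h4d (chr13:23581318-23581567, plus strand), and the third before Hist1h1a (chr13:23763418-23763665, plus strand).
Hist1h2bg: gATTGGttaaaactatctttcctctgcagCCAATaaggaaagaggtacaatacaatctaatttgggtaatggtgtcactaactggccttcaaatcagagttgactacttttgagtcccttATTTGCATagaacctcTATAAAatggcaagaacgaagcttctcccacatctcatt
Hist1h4d: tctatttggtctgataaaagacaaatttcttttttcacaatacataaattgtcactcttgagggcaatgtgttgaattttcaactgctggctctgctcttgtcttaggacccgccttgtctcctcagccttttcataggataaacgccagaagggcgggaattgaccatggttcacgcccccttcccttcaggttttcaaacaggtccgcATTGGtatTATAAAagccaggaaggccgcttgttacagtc
Hist1h1a: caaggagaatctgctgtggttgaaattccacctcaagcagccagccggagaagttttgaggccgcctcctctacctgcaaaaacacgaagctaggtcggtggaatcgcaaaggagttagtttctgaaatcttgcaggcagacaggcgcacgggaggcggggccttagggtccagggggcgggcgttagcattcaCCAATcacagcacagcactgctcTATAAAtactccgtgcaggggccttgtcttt
The TATAAA match begins 43 bases before the RefSeq start of Hist1h2bg, 32 before that of Hist1h4d and 33 before that of Hist1h1a. A match describes the letters only and is not a bound site.

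Histone transcripts were plentiful in every library. The 67 members together took 0.423% and 0.307% of all counts in WT mice 1 and 2, 0.321% and 0.477% in clone 1 mice 1 and 2, and 0.333% and 0.384% in clone 2 mice 1 and 2. On the TMM scale their sums were 3637 and 4237 CPM in WT, 2993 and 4603 CPM in clone 1, and 3384 and 3533 CPM in clone 2. The WT values thus lay inside the range of the KO libraries, whose mean was 3628 ± 689 CPM (SD, n = 4) against 3937 ± 424 CPM (SD, n = 2) in WT.

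By class, H1 members summed to 697 and 1083 CPM in WT, against 555 to 777 CPM in KO. H2A members summed to 523 and 659 CPM in WT, against 459 to 811 CPM in KO. H2B members summed to 1053 and 479 CPM in WT, against 839 to 1258 CPM in KO. H3 members summed to 496 and 912 CPM in WT, against 404 to 725 CPM in KO, and H4 members to 868 and 1104 CPM in WT, against 735 to 1032 CPM in KO. In each class the KO libraries overlapped WT mouse 1; WT mouse 2 was above every KO library for H1, H3 and H4 and below every KO library for H2B.

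**Figure D1:**
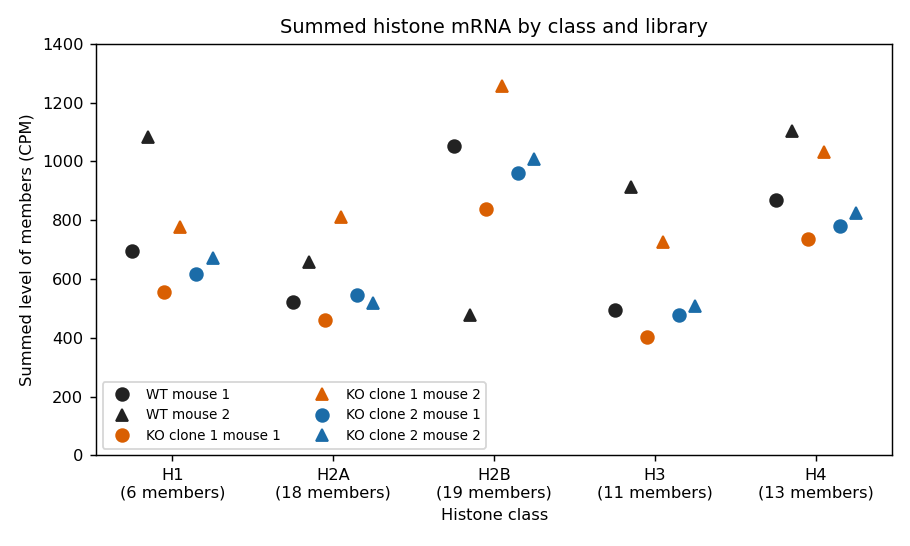
Summed level (CPM, TMM-scaled) of the members of each histone class in each of the 6 libraries, 1 point per library. H2B in WT mouse 2 is at 479 CPM, under the range of 839 to 1258 CPM of the other 5 libraries, while H1 and H3 in that library are the highest of the 6.

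Per length, the order of the genes depended on the gene models. With RefSeq lengths, the highest of the 60 single-exon members ranked was Hist1h4d at 587 CPM per kilobase, followed by Hist2h2bb at 348 and Hist2h2aa1 at 297. With GENCODE exon lengths Hist2h2bb was first at 450 CPM per kilobase, Hist2h2aa1 the third at 282, and Hist1h4d, whose GENCODE model is 1138 bases against 402 in RefSeq, the eighth at 207.5. Both annotations put the 4 lowest at Hist2h2be, Hist2h2aa2, Hist1h1t and Hist1h2ba. Every 31-base word of Hist2h2aa2 also occurs in Hist2h2aa1, which took 98.9% to 100% of the counts of the pair. The rank of Hist2h2aa2 may thus depend on how reads were divided. Every such word of Hist2h2bb and of Hist2h2aa1 also occurs, on either strand, in gene models outside the members, so their ranks carry the same limit.

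No member passed the test between KO and WT. Of the 65 members with enough counts to be tested (all but Hist1h1t and Hist1h2ba), 0 had an adjusted p under 0.05 by edgeR's quasi-likelihood test with Benjamini-Hochberg adjustment over 15560 genes, or by DESeq2. DESeq2 called 499 of the 15560 genes. By edgeR the background was low as well, with 0.135% of all genes called (21 genes, 0.129% higher and 0.00643% lower in KO). At an unadjusted p under 0.05 there were 3 members, all lower in KO (Hist1h1c, Hist1h1d and Hist1h2ad), against 13.6% of all genes. The smallest adjusted p of a member was 0.33. The median log2 fold change of the members was -0.09, with 29 above and 36 below 0, and that of all genes was 0.00.

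H1 proteins bind linker DNA between nucleosomes, and Hist1h1c, Hist1h1e and Hist1h1a were their most abundant transcripts here. Hist1h1c (chr13:23738808-23740367, plus strand) was at 148 and 274 CPM in WT, 123 and 159 CPM in clone 1, and 116 and 126 CPM in clone 2. WT mouse 1 thus lay within the clone 1 values and only WT mouse 2 was above all KO libraries. The log2 fold change of Hist1h1c in KO was -0.69 ± 0.26 (SE; edgeR adjusted p = 0.339). Hist1h1d was at 98.9 and 204.6 CPM in WT, against 73.5 to 101.5 CPM in KO, again with only WT mouse 2 above every KO library (log2 -0.74 ± 0.29, edgeR adjusted p = 0.343). Hist1h1a and Hist1h1e had log2 fold changes of -0.29 ± 0.24 and -0.35 ± 0.20. All 5 tested H1 members were below 0, with a median of -0.35; without WT mouse 2 the median was -0.14, with 4 of 5 below 0.

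H2A pairs with H2B in the dimers that flank the H3 and H4 tetramer. Hist1h2ad (chr13:23574381-23574952, plus strand) had the smallest p among the members. It was at 8.78 and 12.8 CPM in WT, 5.50 and 8.36 CPM in clone 1, and 5.87 and 6.42 CPM in clone 2, so that all KO libraries lay under both WT libraries. Its log2 fold change was -0.72 ± 0.26 (SE; edgeR adjusted p = 0.330). It was the only member whose KO libraries were all below both WT libraries, a pattern that 10.7% of all genes had. In the opposite direction there were 3 such members (Hist1h2an, Hist1h2bp and Hist1h4j), against 12.9% of all genes. Among the abundant H2A members, Hist2h2aa1 was at 131 and 189 CPM in WT, against 120.2 to 241 CPM in KO (log2 0.07 ± 0.31), Hist1h2ai at log2 0.28 ± 0.33 and Hist1h2ak at log2 0.11 ± 0.24. The H2A median was -0.17, with 7 of 18 above 0, and 0.10 with 11 of 18 above 0 when WT mouse 2 was left out.

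For H2B, the log2 fold change was above 0 in 17 of 18 members tested and the median was 0.50, but for 14 of the 18 WT mouse 1 lay within the range of the KO libraries. All KO libraries were above WT mouse 1 for Hist1h2bp and Hist3h2ba and below it for Hist1h2bf and Hist3h2bb-ps. Hist2h2bb was at 183 and 129.6 CPM in WT, against 149 to 226 CPM in KO (log2 0.20 ± 0.23). Hist1h2bb was at 115 and 28.4 CPM in WT, 87.9 and 136 CPM in clone 1, and 119.6 and 116 CPM in clone 2 (log2 0.67 ± 0.49, edgeR adjusted p = 0.483). Hist1h2bg was at 109 and 43.8 CPM in WT, against 81.3 to 111 CPM in KO (log2 0.29 ± 0.34). In each of these, WT mouse 1 lay inside the KO range and WT mouse 2 below it. The largest value of the class was that of Hist1h2bp, at 3.49 and 0.550 CPM in WT, against 3.66 to 6.20 CPM in KO (log2 1.11 ± 0.61, edgeR adjusted p = 0.416). Without WT mouse 2 the class median was -0.09, with 5 of 18 above 0.

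H3 and H4 form the core tetramer. Hist1h3b, the most abundant H3 member, was at 95.6 and 247 CPM in WT, 77.0 and 127 CPM in clone 1, and 94.2 and 92.8 CPM in clone 2 (log2 -0.81 ± 0.36, edgeR adjusted p = 0.375). Hist1h3e and Hist1h3f had log2 fold changes of -0.48 ± 0.26 and -0.04 ± 0.24. Hist1h4d, the most abundant member of all by CPM, was at 256 and 235 CPM in WT, 199 and 291 CPM in clone 1, and 216 and 219 CPM in clone 2, with both WT values inside the KO range (log2 -0.09 ± 0.20). Hist1h4c was as even, at log2 -0.04 ± 0.18, and Hist1h4h was at log2 -0.50 ± 0.26. Hist1h4j was at 25.2 and 21.7 CPM in WT, against 25.4 to 35.2 CPM in KO (log2 0.34 ± 0.20, edgeR adjusted p = 0.433). The medians were -0.14 for H3 and -0.22 for H4, and 0.10 and -0.02 without WT mouse 2.

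**Figure D2:**
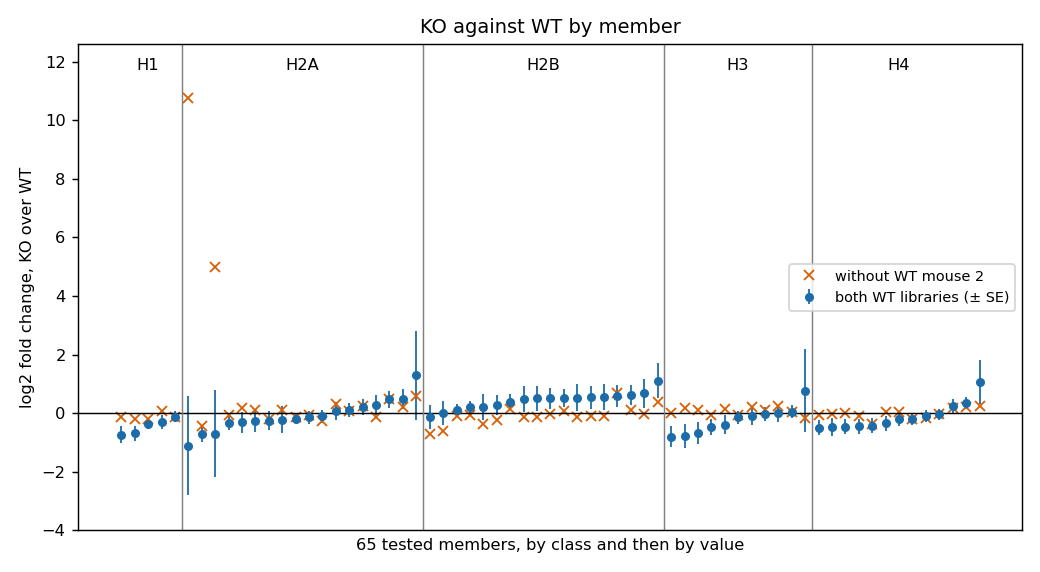
Log2 fold change of KO over WT for each of the 65 tested members, grouped by class and ordered by value, with both WT libraries (points, ± SE) and without WT mouse 2 (crosses). The H2B points sit mostly above 0 (median 0.50) and the H2B crosses near 0 (median -0.09); the 2 crosses furthest up are Hist1h2ao and Hist1h2ap, which WT mouse 1 had at 0 and 0.395 CPM.

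The choice of WT library changed the class values. Without WT mouse 2, 0 of 65 members passed in KO against WT (edgeR; 0.174% of all genes did). Without WT mouse 1, so that WT mouse 2 was the whole WT group, 26 members passed, 14 higher and 12 lower in KO, against 37.5% of all genes. The 14 higher were 13 H2B members and 1 H4 member, and the 12 lower were 5 H3, 4 H4, 2 H1 and 1 H2A members. In both of these fits the single WT library is assumed to vary like the KO libraries.

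Within WT mouse 2 the classes were out of proportion to each other, which no scaling of the library can alter. H2B made up 11.3% of the member sum there and 27.3% to 28.9% in the other 5 libraries. H3 made up 21.5% against 13.5% to 15.7%, and H1 25.6% against 16.9% to 19.2%. On the TMM scale, 17 of 18 tested H2B members were lower in WT mouse 2 than in all other libraries, against 38.7% of all genes, and the exception was Hist3h2ba at 1.31 CPM. With RLE size factors it was 16 of 18, against 37.9% of all genes, and with plain library totals 18 of 18, against 59.7%. Above all other libraries were 4 of 5 H1, 8 of 18 H2A, 5 of 11 H3, 7 of 13 H4 and no H2B members, against 35.1% of all genes. With plain library totals these counts were 2 H1, 1 H2A, 3 H3, 1 H4 and no H2B members, against 13.1% of all genes. The fold from WT mouse 1 to WT mouse 2 was 1.55 for summed H1, 1.26 for H2A, 0.455 for H2B, 1.84 for H3 and 1.27 for H4. With plain library totals H1, H2A and H4 turned to log2 values of -0.04, -0.34 and -0.33, whereas H2B stayed below 0 (-1.82) and H3 above 0 (0.20).

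**Figure D3:**
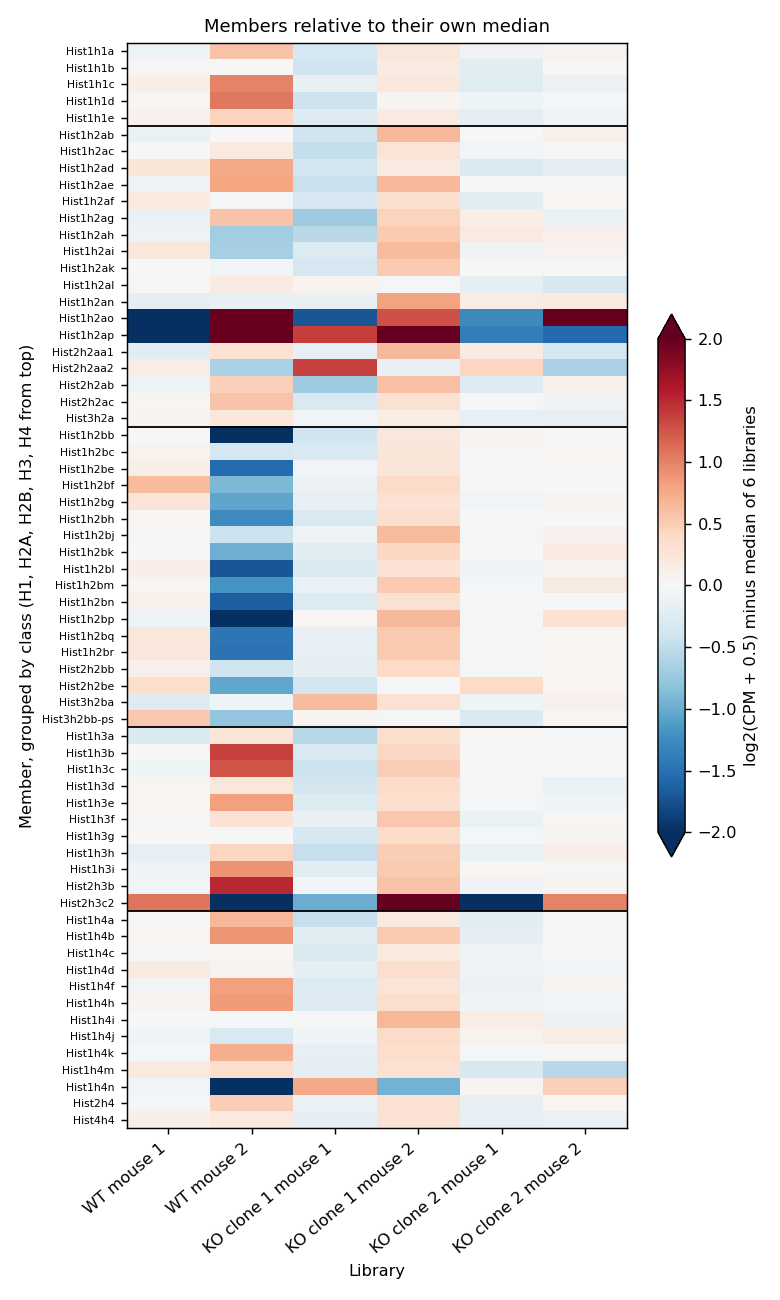
Each of the 65 tested members (rows, grouped by class) in each library (columns), as log2(CPM + 0.5) minus the member's median over the 6 libraries; colours end at 2 in either direction. Nearly all H2B members are blue in WT mouse 2 where most H1 and H3 members are red, and clone 1 mouse 2 is red for most members of every class.

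The genes that share a promoter region show the same imbalance, taken from the same counts. Since 17 of 18 tested H2B members were lowest in WT mouse 2, a low H2B to H2A ratio in that library largely restates the class difference. Ratios of H2B and H2A members that do not lie head to head were not computed. In 12 places an H2A and an H2B member are transcribed away from each other from starts 172 to 301 bases apart. The interval of Hist1h2bg and Hist1h2ae printed above is one of them. There the H2B member was at 109 CPM and the H2A member at 12.9 CPM in WT mouse 1, a ratio of 8.50, and at 43.8 and 24.4 CPM in WT mouse 2, a ratio of 1.79; in KO the ratio was 5.06 to 8.07. The ratio of the H2B to the H2A member was lowest in WT mouse 2 in 12 of 12 pairs. For Hist1h2bq over Hist1h2ao there was no ratio in WT mouse 1, where Hist1h2ao was at 0 CPM. Over the 10 pairs that do not include Hist1h2ao or Hist1h2ap, the median ratio was 1.84 in WT mouse 1, 0.474 in WT mouse 2, 1.75 and 1.56 in clone 1, and 1.72 and 1.65 in clone 2. These ratios compare counts of the same pair across libraries and are not levels per length.

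**Figure D4:**
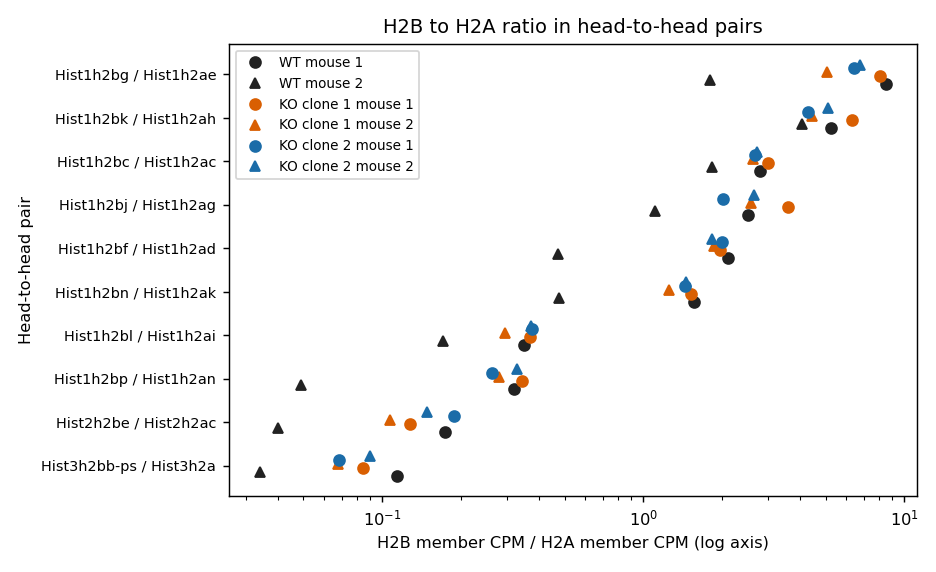
Ratio of the H2B to the H2A member (CPM over CPM, log axis) for the 10 head-to-head pairs without Hist1h2ao and Hist1h2ap, 1 point per library. WT mouse 2 has the lowest ratio in 10 of 10 pairs.

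Each clone was also set against WT, with the same WT libraries in both comparisons. For clone 1, 0 of 65 members passed by edgeR, against 0.00643% of all genes, and 0 by DESeq2, against 271 genes in all. By edgeR, 0 members had an unadjusted p under 0.05, against 7.1% of all genes, and the smallest adjusted p was 0.712. For clone 2, 0 of 65 passed by edgeR, against 0.00643% of all genes, and 0 by DESeq2, against 465 genes in all. By edgeR, 3 members had an unadjusted p under 0.05, all lower (Hist1h1c, Hist1h2ad and Hist1h4m), against 11.3% of all genes. The member medians were -0.03 for clone 1 and -0.13 for clone 2, against 0.02 and -0.03 for all genes. Hist1h4m, an H4 member, was at 47.1 and 52.5 CPM in WT, 35.8 and 51.1 CPM in clone 1, and 32.9 and 27.9 CPM in clone 2 (clone 2 over WT, log2 -0.71 ± 0.25, edgeR adjusted p = 0.418). Summed with its near copy Hist1h4n, whose reads may have been divided from it, it was at 71.3 and 55.8 CPM in WT, against 58.8 to 78.2 CPM in KO, and the groups then overlapped.

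Between the clones, 0 of 65 members passed by edgeR, against 0% of all genes, and 0 by DESeq2, against 117 genes in all. By edgeR, 0 members had an unadjusted p under 0.05, against 3.23% of all genes. The median of clone 2 over clone 1 was -0.14, with 53 of 65 members below 0. The spread within clone 1 was larger than this difference. Mouse 2 was above mouse 1 of clone 1 for 60 of 65 members, against 50.5% of all genes, and its member sum was 1.54 times as high. Both clone 2 libraries lay between the 2 clone 1 libraries for 49 of 65 members, against 24.8% of all genes. The clone 2 mice were close to each other, with a ratio of 1.04 for the member sum. Without clone 1 mouse 2 the median of clone 2 over clone 1 was 0.23, and without clone 1 mouse 1 it was -0.40, so that 1 mouse decides its sign.

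Over the 5 libraries other than WT mouse 2, the members had a wider range than other genes. The fold from the lowest to the highest level (with 0.5 CPM added) had a median of 1.61 over the members, against 1.32 for the 10590 genes with a mean of 5 CPM or more. It was under 2 for 54 of 65 members (83.1%) and for 91.2% of those genes. The 65 members were not held to a mean of 5 CPM. Hist2h2ab and Hist2h2aa2, with folds of 2.48 and 4.05, had means of 3.18 and 0.44 CPM.

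The fold was 2 or more for 11 members. Of these, 8 share at least 50% of their 31-base words with another member, and Hist2h3c2, Hist2h2ab and Hist1h2ae share less. Of the other 54 tested members, 31 share at least 50%, so that for 39 in all the division of reads between them is uncertain. That count leaves out words shared with genes outside the members. On either strand, these were 64.2% of the words of Hist2h3c2, 66.4% of those of Hist2h2ab and 36.6% of those of Hist1h2ae. For Hist1h2ao and Hist1h2ap they were 61.6% and 61.3%, so the sum of that pair may also depend on how reads were divided. Hist1h2ao and Hist1h2ap, H2A genes on chromosome 13 that share over 93% of such words, summed to 0.395 and 65.5 CPM in WT, 18.3 and 37.4 CPM in clone 1, and 3.03 and 14.2 CPM in clone 2. The WT libraries held both the lowest and the highest sum, and both clone 1 libraries were above both clone 2 libraries. Hist1h2ap alone had a log2 value of -3.55 ± 1.60 for clone 2 over clone 1 (edgeR adjusted p = 1). When WT mouse 2 was left out of the fit, the standard error was smaller and the same difference passed (-3.55 ± 0.30, edgeR adjusted p = 0.0119; 0.541% of all genes), as it did without WT mouse 1 (adjusted p = 0.0141 by edgeR; 0.486% of all genes). Without WT mouse 2, Hist1h2ap also passed in clone 1 over WT (log2 5.89 ± 0.48, edgeR adjusted p = 0.0128; 0.361% of all genes), which rests on 0.395 CPM in WT mouse 1. Hist2h3c2 ranged from 0.756 to 55.1 CPM alone, but the sum with its copy Hist2h3b was 46.3 to 135 CPM. Hist1h2bq and Hist1h2br were divided evenly in every library (50.4% to 51.0% for the former), with sums of 132 and 40.4 CPM in WT, against 100.9 to 163 CPM in KO.

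Not every member is tied to S phase. Hist1h1t and Hist1h2ba encode testis variants that package chromatin in male germ cells, and both were at or near 0, with at most 0.275 CPM and 0.0439 CPM in any library. Hist1h1c, Hist1h2bc, Hist2h2be and Hist3h2a are known to also give polyadenylated transcripts in differentiated cells. Their sum was 283 and 388 CPM in WT, against 231 to 305 CPM in KO, with 0 of 4 past the test and a median log2 fold change of -0.04. Hist1h2bc, 1 of the 5 members with a spliced model, was at 87.7 and 66.5 CPM in WT, against 67.7 to 99.0 CPM in KO (log2 0.11 ± 0.21). Hist3h2a was at 40.02 and 44.4 CPM in WT, against 34.0 to 42.5 CPM in KO (log2 -0.19 ± 0.17), and Hist2h2be was at 6.83 and 2.27 CPM in WT, against 3.95 to 7.04 CPM in KO (log2 0.20 ± 0.44).

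The order of the libraries was nearly shared by the members and the other sets of proliferation and histone genes. The 53 genes of DNA replication summed to 3547 and 3409 CPM in WT, 2850 and 3569 CPM in clone 1, and 3113 and 3176 CPM in clone 2. Without WT mouse 2, the libraries ranked from low to high as clone 1 mouse 1, clone 2 mouse 1, clone 2 mouse 2, WT mouse 1 and clone 1 mouse 2, for both the histone members and the S phase genes; with plain library totals the last 2 changed places for the S phase genes. The G2 and mitosis genes and the replacement histones had this same order on the TMM scale, except that the last 2 changed places. The 36 genes of G2 and mitosis summed to 3727 and 2549 CPM in WT, against 2860 to 3621 CPM in KO. From mouse 1 to mouse 2 of clone 1, the member sum was 1.54-fold, the S phase sum 1.25-fold and the G2 and mitosis sum 1.27-fold, while the macrophage marker sum was 0.890-fold and the T and NK marker sum 0.513-fold. In WT mouse 2 the sets parted, with 1.17-fold the member sum of WT mouse 1, 0.961-fold the S phase sum and 0.684-fold the G2 and mitosis sum. The histone sum was 1.02 and 1.24 times the S phase sum in WT, 1.05 and 1.29 times in clone 1, and 1.09 and 1.11 times in clone 2.

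**Figure D5:**
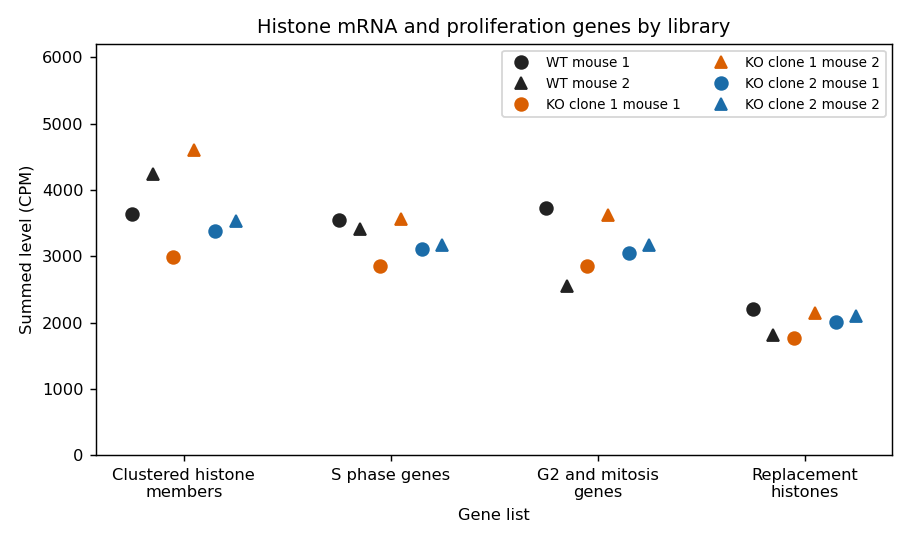
Summed level (CPM, TMM-scaled) of the 67 clustered histone members, 53 S phase genes, 36 genes of G2 and mitosis and 12 replacement histone genes, 1 point per library. Clone 1 mouse 1 is the lowest and clone 1 mouse 2 the highest KO library in all 4 sets, and WT mouse 2 is the lowest of the 6 for G2 and mitosis only.

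None of the lists of S phase, G2 and mitosis, histone mRNA processing, histone chaperone and replacement histone genes held a gene past the test in KO against WT (edgeR, the same 0.135% of all genes). Of the 53 S phase genes, 32 were below 0, with a median of -0.06. The smallest p-values belonged to Clspn, a checkpoint adaptor at forks, at 52.3 and 75.2 CPM in WT, against 33.4 to 43.6 CPM in KO (log2 -0.71 ± 0.20, edgeR adjusted p = 0.270), and to Lig1, which joins Okazaki fragments (log2 -0.89 ± 0.27, edgeR adjusted p = 0.287). Among 36 genes of G2 and mitosis the median was -0.02, and Cdca3 was at 67.7 and 59.3 CPM in WT, against 34.9 to 55.3 CPM in KO (log2 -0.63 ± 0.23, edgeR adjusted p = 0.328).

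Among the 24 genes of histone mRNA transcription and processing, 14 were above 0 and 10 below, and the median was 0.09. Those with the smallest p-values were below 0, namely Srrt (log2 -0.41 ± 0.17, edgeR adjusted p = 0.351) and Tut1 (log2 -0.43 ± 0.18, edgeR adjusted p = 0.354). Npat, the coactivator of histone gene transcription, was at 39.9 and 14.6 CPM in WT, against 38.4 to 41.1 CPM in KO (log2 0.54 ± 0.36), and Casp8ap2, a component of the bodies where histone genes are transcribed, at 66.0 and 28.9 CPM in WT, against 67.9 to 76.0 CPM in KO (log2 0.59 ± 0.31). For Npat, WT mouse 1 lay within the KO range and WT mouse 2 below it. Of the 21 histone chaperone genes, 14 were below 0 and the median was -0.30. Chaf1a, a subunit of the factor that deposits H3 and H4 behind forks, was at 61.7 and 88.0 CPM in WT, against 42.5 to 55.5 CPM in KO (log2 -0.67 ± 0.20, edgeR adjusted p = 0.286).

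Replacement histones are also made outside S phase, mostly from polyadenylated transcripts. They summed to 2204 and 1818 CPM in WT, against 1772 to 2144 CPM in KO over 12 genes. Of the 11 tested, 8 were below 0, with a median of -0.30. The pair of genes that encode H3.3 went apart in WT mouse 2. H3f3a was at 489 and 111 CPM in WT, against 426 to 554 CPM in KO (log2 0.75 ± 0.50), and H3f3b at 956 and 1166 CPM in WT, against 777 to 862 CPM in KO (log2 -0.38 ± 0.18). H2afz, which encodes H2A.Z, was at 378 and 153 CPM in WT, against 278 to 416 CPM in KO (log2 0.40 ± 0.35), and H2afx, which encodes H2A.X, at 40.9 and 73.4 CPM in WT, against 29.9 to 51.3 CPM in KO (log2 -0.52 ± 0.29).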

How the data were processed

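Total RNA of sorted macrophages was made into TruSeq libraries after removal of ribosomal RNA, per the labels' protocols, and each of the 6 libraries is 1 mouse. The authors deposited 1 table of estimated counts (expected counts, whole numbers) per gene symbol, with no scaling to depth. The submitters' processing notes name Salmon 0.7.2 and mm10, with no role or order. The sources used here do not give the transcript set, the use of strand or how transcripts were summed to genes, so reads of near-identical members, and of the 21 members that overlap a gene model on the opposite strand (all 18 H2A members among them), may have been divided or merged.

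The test was the quasi-likelihood F test of edgeR 4.0.16 in R 4.3.3, with TMM factors and filterByExpr (minimum count 10, minimum total 15), with Benjamini-Hochberg adjustment over all 15560 genes and a threshold of 0.05. KO against WT used 2 genotype levels, and clone comparisons a fit with 3 groups. A standard error is the absolute log2 fold change divided by the square root of F. CPM values were computed from the deposited counts on TMM-scaled totals. Totals ran from 20038047 to 40022755, and counts of the members from 61603 to 176775 per library. Positions came from GENCODE M21, promoters from RefSeq. The fits were tested on simulated counts.

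The members and all gene lists were chosen with earlier results of these data known. Named members are the 3 highest per class by mean CPM, the 3 with the smallest p per direction and comparison, the testis and polyadenylated members, and up to 4 genes per direction in other lists. Hist1h2ae, Hist1h2bq, Hist1h2br, Hist1h4n, Hist2h2aa2, Hist2h2ab, Hist2h3b, Hist2h3c2, Hist1h2bf, Cd3g, Cd2, Ly6c2 and the 2 pseudogenes were named after their values were seen. Alternatives were RLE size factors, DESeq2 1.42.0, 2 filters, a replicate block, removal of Rn45s, a 3-group fit and leaving out each library. Comparing WT mouse 2 with WT mouse 1 under 4 scalings was chosen after seeing the data. A marker list is not reported here.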

Additional observations from a re-analysis of the deposited data

How the results depend on the processing

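The count of members past the threshold stayed at 0 in all 4 comparisons under RLE size factors, DESeq2, no filter beyond 1 count, a filter of 5 CPM in 2 libraries, the replicate block and removal of Rn45s. With the replicate block the member medians were -0.05 for KO over WT, -0.05 for clone 1, -0.12 for clone 2 and -0.10 between clones. The block left 15 of all genes tested called in KO against WT and 0 in each clone against WT. Deviations of same-numbered mice correlated at -0.135 (WT and clone 1), 0.05 (WT and clone 2) and 0.197 (clones). With 2 mice per group and WT mouse 2 unlike the rest, these values cannot settle whether mouse numbers pair the samples. The crossed pairing was not fitted.

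Leaving out 1 library at a time, members called ranged from 0 to 26 (KO against WT), 0 to 19 (clone 1), 0 to 28 (clone 2) and 0 to 1 (between clones), and the counts of 19, 26 and 28 all came from leaving out WT mouse 1. Over the same fits all genes called ranged from 1 to 6020, 0 to 5535, 0 to 6445 and 0 to 87, and member medians from -0.22 to 0.03, -0.31 to 0.25, -0.15 to -0.05 and -0.40 to 0.23. The log2 ratio of the summed members, KO over WT, was -0.12 and ranged from -0.253 to -0.003. It was 0.05 with plain library totals.

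The count of all genes called moved more. In KO against WT it was 21, with 499 by DESeq2, 111 without the filter and 1 in the 3-group fit. For clone 1 it was 1, with 271 by DESeq2, 123 without the filter and 0 with the 5 CPM filter. For clone 2 it was 1, with 9 by RLE, 465 by DESeq2, 229 without the filter, 0 with the 5 CPM filter and 8 with Rn45s removed. Between clones it was 0, with 117 by DESeq2 and 53 without the filter. The cause was not tested. For the 29 named members, 1380 alternative values kept direction and side of the threshold or did not pass in either, 37 newly passed, all on leaving out a WT library, and 0 passed in the opposite direction.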
